A study of Rattus norvegicus with 10 samples.

Results

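Cytochrome c oxidase and ATP synthase are the enzymes at the end of mitochondrial respiration. The oxidase (complex IV) passes electrons from cytochrome c to oxygen and pumps protons across the inner membrane, and ATP synthase (complex V) lets the protons flow back and makes ATP. Some small nuclear subunits of the oxidase exist as a form used by heart and skeletal muscle and a form used by most other tissues, so that muscle and bone RNA differ in these transcripts. The genes described here are the spots whose name is a RefSeq accession of a rat nuclear gene with a symbol starting with Cox4 to Cox8 or Atp5. This rule found 7 genes among the 4803 spots of the array, of which 1177 could be named through a RefSeq accession, and the other 29 of the 36 genes that the rule allows had no spot named in this way. The 7 are Cox6a2 and Cox8b, the heart and muscle forms of oxidase subunits VIa and VIII, then Cox4i1 and Cox6c, oxidase subunits made in most tissues, and Atp5mc1, Atp5pd and Atp5if1 of ATP synthase.

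By the study's design the arrays compared the treated right tibia of each of 10 rats with the untreated left tibia of the same rat. On the arrays numbered 4 the tibia numbers in the file headers cross, as described below. All rats were female Wistar rats, 12 weeks old, anaesthetized for the session and killed 6 hours after it. In LOAD rats (n = 5) the right tibia was bent in a 4-point device for 300 cycles at 2 Hz, with the peak set to 60 N. In SHAM rats (n = 5) the pads were placed opposite each other, which squeezes the leg without bending the bone. RNA of the pulverized shaft of each tibia was labelled with Cy3 or Cy5, and the treated tibia carried Cy5 on 2 and Cy3 on 3 of the 5 arrays of each group. Per the study's methods the marrow, the periosteum and both ends had been taken off before freezing. In such bulk samples fewer cells of a type and less RNA per cell cannot be told apart.

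The 250 bases before the start site used in the RefSeq promoter table, on GRCr8, are shown for both muscle forms and for Cox4i1 because the contrast between the forms is the base of the comparisons that follow. Capitals mark CAGCTG (an E box, the kind of site that myogenic factors such as MyoD bind), the MEF2 consensus and TATAAA, each searched on both strands. The windows are chr1:192219717-192219966 on the minus strand for Cox6a2, chr1:205408274-205408523 on the minus strand for Cox8b and chr19:65630133-65630382 on the plus strand for Cox4i1, each written along the strand of its gene. The windows of Cox8b and Cox4i1 end where the annotated gene begins, whereas that of Cox6a2 lies inside its annotated span, 192218970 to 192221188, which reaches beyond this start site.
Cox6a2: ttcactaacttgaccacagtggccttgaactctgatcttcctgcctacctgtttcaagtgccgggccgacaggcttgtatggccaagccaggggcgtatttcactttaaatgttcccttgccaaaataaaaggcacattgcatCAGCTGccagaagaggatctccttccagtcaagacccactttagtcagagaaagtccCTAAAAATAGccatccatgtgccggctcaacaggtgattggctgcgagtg
Cox8b: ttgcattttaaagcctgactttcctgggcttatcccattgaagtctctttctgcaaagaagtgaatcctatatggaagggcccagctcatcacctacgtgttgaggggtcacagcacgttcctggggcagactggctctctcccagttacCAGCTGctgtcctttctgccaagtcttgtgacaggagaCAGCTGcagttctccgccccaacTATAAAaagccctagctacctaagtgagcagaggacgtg
Cox4i1: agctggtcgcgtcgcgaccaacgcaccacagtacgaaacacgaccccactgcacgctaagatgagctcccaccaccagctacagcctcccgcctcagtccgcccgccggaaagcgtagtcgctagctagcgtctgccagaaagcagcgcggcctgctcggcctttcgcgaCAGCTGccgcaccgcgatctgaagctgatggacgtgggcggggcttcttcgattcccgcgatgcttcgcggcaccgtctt

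The Cox6a2 window held 1 CAGCTG and 1 match to the MEF2 consensus, CTAAAAATAG, beginning 50 bases before the end of the window. The Cox8b window held 2 CAGCTG and 1 TATAAA, and the Cox4i1 window 1 CAGCTG. Among all 33469 windows of this length, 12% held CAGCTG, 2.96% the MEF2 consensus and 12.9% TATAAA. The windows of the muscle forms held 5 (Cox6a2) and 4 (Cox8b) CG dinucleotides, at 49.6% and 51.2% G and C, and that of Cox4i1 held 31 at 64.8%. At most 5 CG were found in 50.2% of all windows, and as many as in Cox4i1 in 4.68%. Atp5mc1, with 14 CG, and Atp5if1, with 16, lay between these, and neither held a match to the searched letters. The windows of Cox6c and Atp5pd are not shown. The oligonucleotides spotted for these genes were not among the files used here.

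Every one of the 7 spots had a signal probability of 1 in all 20 channels. Per the study's methods the spotted oligonucleotides could cross-react with other genes, which signal probability does not show. Each array had 32 to 166 of 4803 spots under the confidence limit, and 4707 genes had at most 1 missing value. Several arrays stood apart or went against a label. A label field of SHAM 1 says LOAD, while its title, its description and the file header say SHAM, and it was kept as SHAM. The file headers number the tibiae, and on the arrays numbered 4 these numbers cross: tibia 3 of LOAD 4 was hybridized with control 26, and tibia 25 of SHAM 4 with control 4, whereas all other arrays pair consecutive numbers. Ratios also followed the dye. Arrays with the treated tibia in the same dye correlated positively over all genes in 16 of 18 pairs that leave out LOAD 2, and arrays of opposite dye in 4 of 18. LOAD 2, labelled as Cy5, correlated with the other Cy5 arrays at r of -0.35 (LOAD 5), -0.34 (SHAM 2) and -0.14 (SHAM 4), and its stated direction was kept. The spots were scanned in 4 image batches. Batch 1 held 2 LOAD and 2 SHAM arrays, and batches 2, 3 and 4 held 1 LOAD and 1 SHAM array each.

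In LOAD rats the muscle forms averaged slightly lower in the loaded than in the control tibia, by an amount within the spread between rats, and in SHAM rats they averaged close to 0. Cox6a2, the muscle form of a regulatory subunit that sits on the oxidase dimer, had log2 ratios of treated to control tibia of -0.15, -0.06, -0.17, -0.67 and 0.23 in LOAD 1 to 5, and of -0.32, 0.43, -0.09, 0.12 and -0.26 in SHAM 1 to 5. The LOAD values lay below 0 in 4 of 5 rats and the groups overlapped over most of their range, LOAD 4 being the lowest of all. Cox8b, the muscle form of the smallest oxidase subunit, had log2 ratios of -0.18, -0.36, -0.21, -0.33 and 0.25 in LOAD rats and of -0.21, 0.31, 0.02, 0.07 and -0.04 in SHAM rats. For this gene too 4 of 5 LOAD rats were below 0, and the exception in both genes was LOAD 5.

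**Figure D1:**
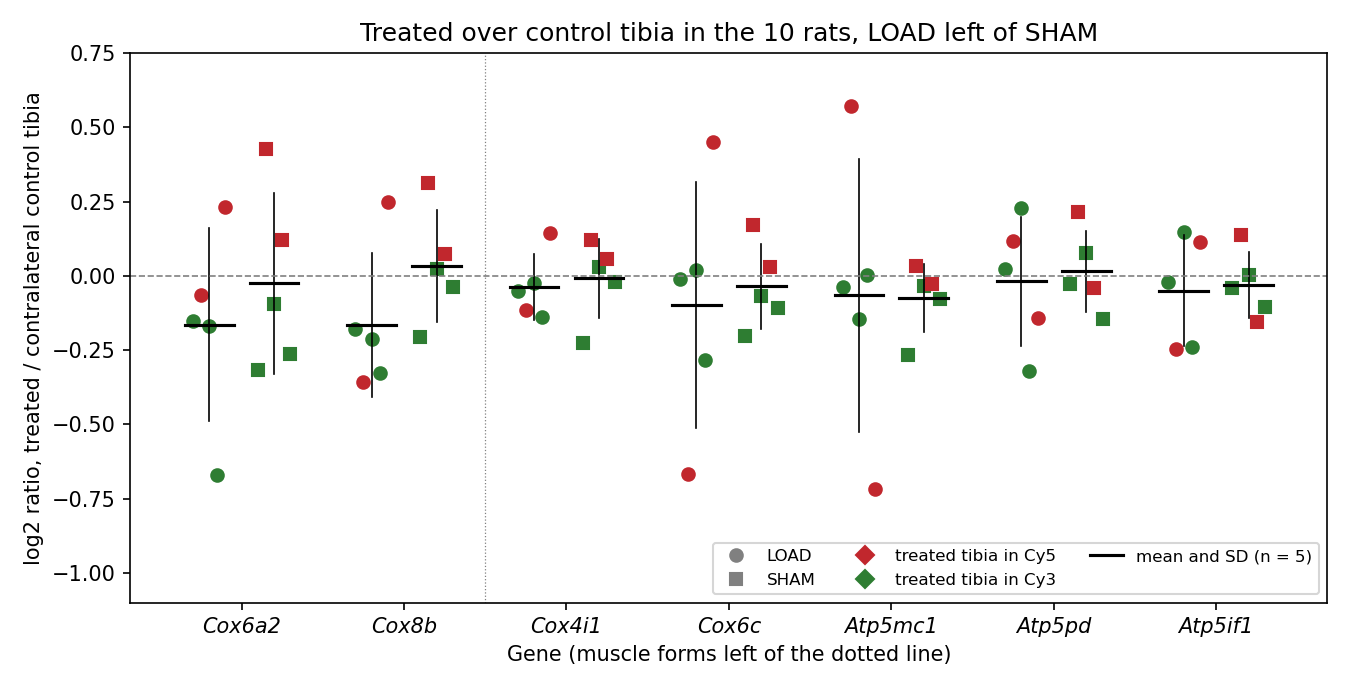
Log2 ratio of treated to contralateral control tibia for the 7 genes, each point an array, LOAD (circles) left of SHAM (squares), coloured by the dye of the treated tibia, with mean and SD (n = 5). The LOAD mean was -0.16 for Cox6a2 and -0.17 for Cox8b, and the groups overlapped for every gene.

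The mean ratio of Cox6a2 was -0.16 ± 0.33 in LOAD and -0.03 ± 0.30 in SHAM rats (SD, n = 5 each), which corresponds to a fold of 0.892 in LOAD rats. The mean ratio of Cox8b was -0.17 ± 0.24 in LOAD and 0.033 ± 0.19 in SHAM rats (SD, n = 5 each), again a fold of 0.892 in LOAD rats. LOAD minus SHAM was -0.14 for Cox6a2, with a 95% interval of -0.54 to 0.26, and -0.20 for Cox8b, with an interval of -0.50 to 0.11. Neither passed limma's test at a false discovery rate of 20% (adjusted p = 0.999 for both, exact permutation p = 0.516 and 0.190 with 252 splits, 2-sided). The intervals still allow a fall to a fold of 0.688 (Cox6a2) or 0.706 (Cox8b) in LOAD relative to SHAM. Among all genes 0% passed this threshold in LOAD, in SHAM and in LOAD versus SHAM, and none of the 7 had an unadjusted p under 0.05, which 3.34%, 0.68% and 1.49% of genes had in these comparisons.

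These differences changed in size with the rats included, and both stayed below 0 without each of the 10 rats in turn. LOAD minus SHAM of Cox6a2 was -0.013 without LOAD 4, 0.023 without both arrays numbered 4, -0.026 without SHAM 2, -0.24 without LOAD 5 and -0.21 without SHAM 1. It was -0.24 with SHAM 1 counted as LOAD, and 0.29 with the tibiae numbered 4 set against the control of the consecutive header number, where LOAD 4 came to 0.40 and SHAM 4 to -0.95. The value of Cox8b was -0.16 without LOAD 4, -0.13 without SHAM 2, -0.27 with SHAM 1 counted as LOAD and 0.011 with the tibiae numbered 4 paired by header number. Without LOAD 5, Cox8b reached -0.30 (unadjusted p = 0.0266, limma adjusted p = 0.855). Without LOAD 2 the values were -0.16 (Cox6a2) and -0.15 (Cox8b). Within the 4 image batches LOAD minus SHAM of Cox8b was -0.32, -0.23, -0.40 and 0.29, and that of Cox6a2 -0.16, -0.075, -0.79 and 0.49, so that the batch of LOAD 5 and SHAM 5 ran the other way in both genes.

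After loess normalization the general oxidase subunits had mean ratios in LOAD rats nearer 0 than those of the muscle forms, a gap that was smaller with median centring. With median centring the LOAD mean was -0.24 for Cox6a2 and for Cox8b, -0.19 for Cox4i1 and -0.23 for Cox6c, and LOAD minus SHAM was -0.22 for Cox6a2, -0.28 for Cox8b, -0.22 for Cox4i1 and -0.22 for Cox6c. The values that follow are those after loess. Cox4i1, the subunit through which ATP and ADP adjust the oxidase in most tissues, had the narrowest spread of the 7 in LOAD rats, with log2 ratios of -0.05, -0.12, -0.02, -0.14 and 0.14 there and of -0.23, 0.12, 0.03, 0.06 and -0.02 in SHAM rats. Its mean was -0.037 ± 0.11 in LOAD and -0.0077 ± 0.13 in SHAM rats, and LOAD minus SHAM was -0.030 with a 95% interval of -0.25 to 0.19. Cox6c, a small structural subunit with no muscle form, had log2 ratios of -0.01, -0.67, 0.02, -0.28 and 0.45 in LOAD rats and of -0.20, 0.17, -0.07, 0.03 and -0.11 in SHAM rats. Its SD was 0.41 in LOAD and 0.14 in SHAM rats, with LOAD 2 and LOAD 5 at opposite ends, and LOAD minus SHAM was -0.064 with a 95% interval of -0.46 to 0.33, or 0.079 without LOAD 2.

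The genes of ATP synthase also averaged near 0. Atp5mc1, which encodes subunit c of the ring that turns with the passing protons, had log2 ratios of -0.04, 0.57, -0.15, 0.00 and -0.72 in LOAD rats and of -0.27, 0.03, -0.03, -0.03 and -0.08 in SHAM rats. LOAD 2 and LOAD 5 were again the extremes, in the order opposite to that of Cox6c. Atp5pd, which encodes subunit d of the stalk that holds the catalytic head, had ratios between -0.32 and 0.23 in LOAD rats and between -0.14 and 0.22 in SHAM rats. Atp5if1, the inhibitor that keeps the enzyme from hydrolysing ATP when respiration stops, had ratios between -0.25 and 0.15 in LOAD rats and between -0.15 and 0.14 in SHAM rats. LOAD minus SHAM was 0.0088 (95% interval -0.41 to 0.43) for Atp5mc1, -0.034 (-0.31 to 0.24) for Atp5pd and -0.018 (-0.27 to 0.23) for Atp5if1.

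**Figure D2:**
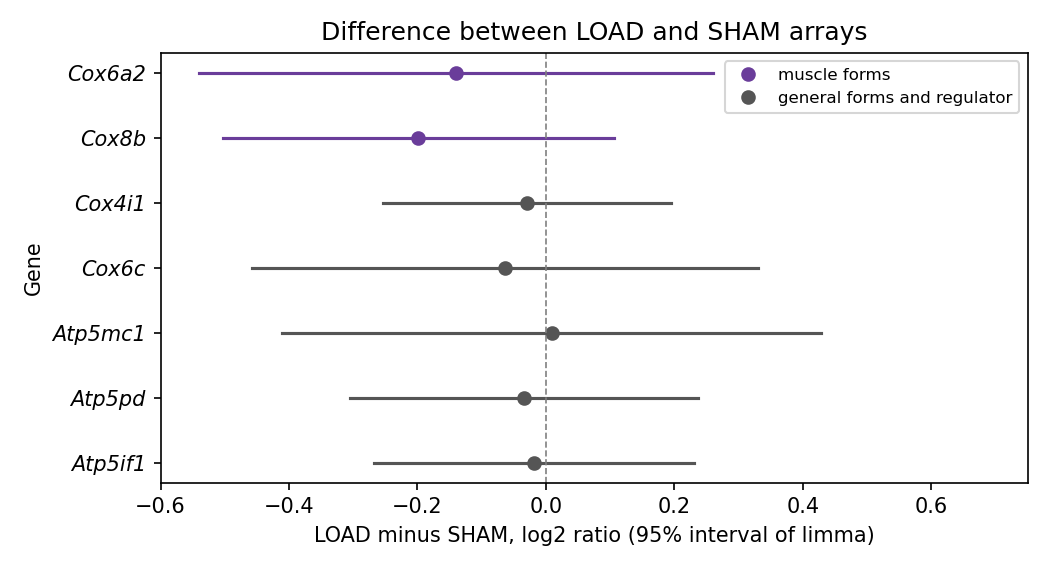
LOAD minus SHAM in log2 ratio for each gene (point) with the 95% interval from limma (line), muscle forms at the top. All 7 intervals include 0, and Cox8b has the lowest point at -0.20.

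The mean ratio lay below 0 for 7 of 7 genes in LOAD rats, for 5 of 7 in SHAM rats and for 6 of 7 in LOAD minus SHAM, against 53%, 48.8% and 52.2% of all genes tested. The median over the 7 was -0.066 in LOAD, -0.026 in SHAM and -0.034 in LOAD minus SHAM, and over all genes it was -0.0067, 0.0026 and -0.0067. The 7 ratios come from the same arrays and share their normalization. The count in LOAD rats depended on the arrays included. Without LOAD 2 Cox6c came to 0.044, without LOAD 4 Atp5pd to 0.057 and without LOAD 5 Atp5mc1 to 0.097. With the tibiae numbered 4 paired by header number, only Cox8b (-0.061) and Atp5mc1 (-0.071) lay below 0 in LOAD rats.

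In single tibiae the muscle forms averaged higher in LOAD than in SHAM rats, also in the legs that received no treatment, though none of these differences passed the adjusted test. The normalized log2 level of Cox8b in the contralateral control tibia was 9.54, 10.02, 9.66, 9.98 and 10.11 in LOAD rats and 9.56, 9.25, 9.01, 9.46 and 9.44 in SHAM rats. Only LOAD 1 fell below a SHAM value, that of SHAM 1. The means were 9.86 ± 0.25 in LOAD and 9.34 ± 0.22 in SHAM controls (SD, n = 5 each), a difference of 0.52 (SE 0.19) or 1.43-fold. In the single channel fit this had an unadjusted p of 0.0117 and did not pass after adjustment (limma adjusted p = 0.843), and 5.23% of all genes had an unadjusted p under 0.05 while 0% passed at a false discovery rate of 20%. The difference was positive in each of the 4 image batches (0.37, 0.65, 0.52 and 0.68). Batches 2, 3 and 4 each set 1 LOAD rat against 1 SHAM rat. The difference was 0.51 without both arrays numbered 4, but 0.078 with the controls of these arrays exchanged between the groups.

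In the control tibiae Cox6a2 had log2 levels of 9.58, 9.59, 9.76, 10.28 and 9.89 in LOAD rats and of 9.90, 9.20, 9.36, 9.20 and 9.31 in SHAM rats. The groups were apart except for SHAM 1, which lay among the LOAD values. LOAD minus SHAM was 0.43 (SE 0.22, limma adjusted p = 0.843), and -0.20 with the controls of the arrays numbered 4 exchanged. In the treated tibiae the difference between loaded and sham-loaded was 0.32 for Cox8b (9.70 ± 0.39 against 9.38 ± 0.21) and 0.29 for Cox6a2 (9.66 ± 0.27 against 9.37 ± 0.24), neither past the test (limma adjusted p = 0.927 and 0.946), with 4.61% of all genes at an unadjusted p under 0.05 and 0% past the adjusted threshold. Both muscle forms averaged higher in LOAD than in SHAM rats in either leg. The corresponding differences of the other 5 genes lay between -0.14 and 0.24 in the control and between -0.13 and 0.18 in the treated tibiae. By the study's design both legs of a rat were read in the same spots (correlation within spots 0.739), so the legs are not separate observations. In the treated tibiae the difference of Cox6a2 was -0.12 in image batch 1 and 0.32, 0.28 and 1.07 in batches 2, 3 and 4. In all, LOAD minus SHAM was above 0 for 6 of 7 genes in the controls, against 51.5% of all genes, and for 5 of 7 in the treated tibiae, against 48.6%. For none of the 7 were the LOAD and SHAM tibiae fully apart with LOAD higher, as 0.313% and 0.224% of genes were. Ckm, muscle creatine kinase, had a log2 level of 10.10 ± 1.23 in LOAD and 8.97 ± 0.52 in SHAM controls, and its part in these differences was not tested.

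**Figure D3:**
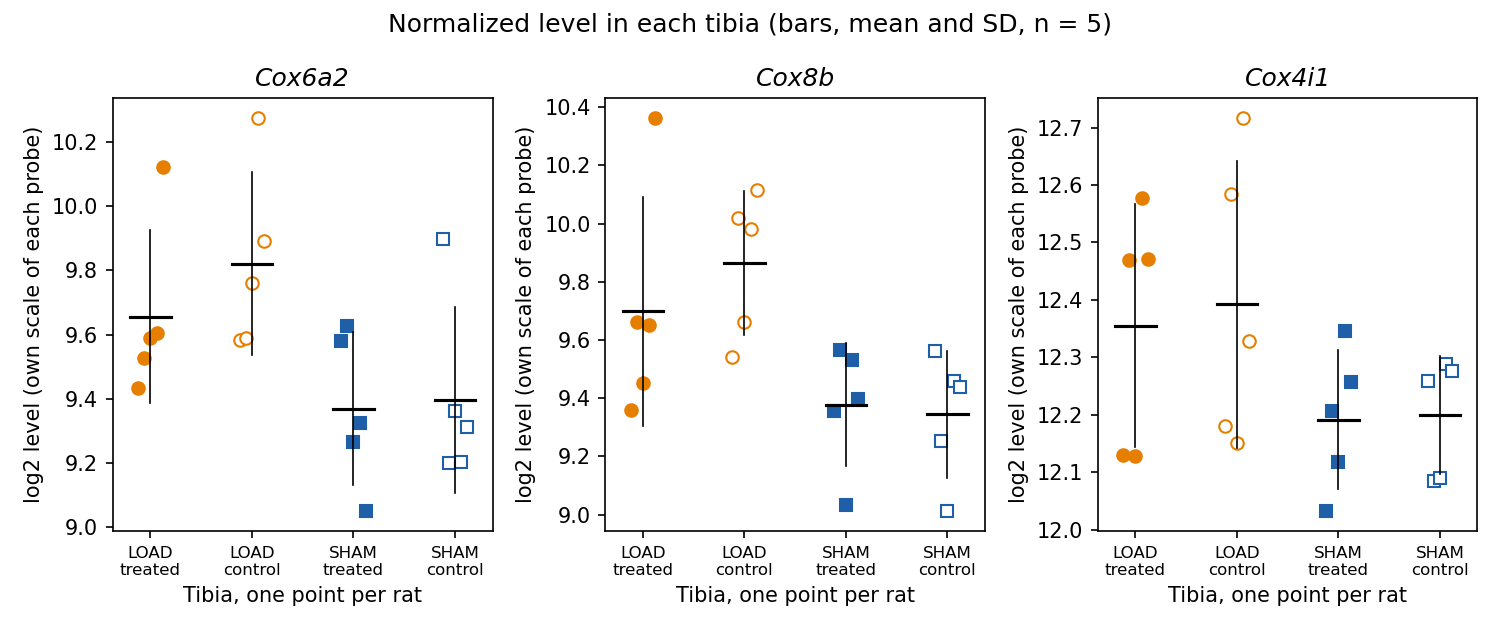
Normalized log2 level of Cox6a2, Cox8b and Cox4i1 in each tibia (filled, treated; open, control), LOAD left of SHAM, with mean and SD (n = 5). Cox8b averaged 9.86 in LOAD and 9.34 in SHAM control tibiae, and each panel has its own scale.

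The variation of a gene between rats was set against its variation between the legs of a rat. By the study's design both legs of a rat shared an array, so variation between rats cannot be told apart here from variation between arrays. The SD over rats of the mean level of both legs was 2.34 times the SD of the difference between the legs for Atp5if1, 1.73 times for Atp5pd, 1.61 times for Cox4i1 and 1.42 times for Cox8b. It was 1.22 times for Cox6c, 0.916 times for Cox6a2 and 0.642 times for Atp5mc1. The SD of a mean and the SD of a difference are on unlike scales, so these ratios only rank the genes.

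Whether a muscle form moved relative to a general form on the same array was asked with Cox4i1 and Cox6c as the general forms, since the same-subunit partners Cox6a1 and Cox8a had no spot named by RefSeq. Cox8b minus Cox4i1 was -0.13, -0.24, -0.19, -0.19 and 0.11 in LOAD rats and 0.021, 0.19, -0.0055, 0.017 and -0.019 in SHAM rats. LOAD 1 to 4 were below every SHAM rat and LOAD 5 was above all but SHAM 2. The mean was -0.13 ± 0.14 in LOAD and 0.041 ± 0.085 in SHAM rats, with a difference of -0.17 (exact permutation p = 0.0476, 2-sided, n = 5 each, adjusted over the 4 pairs 0.190). The smallest p this design allows is 0.00794. LOAD minus SHAM of Cox8b minus Cox6c was -0.14 (exact permutation p = 0.214), that of Cox6a2 minus Cox4i1 -0.11 (p = 0.484) and that of Cox6a2 minus Cox6c -0.076 (p = 0.730), with adjusted values of 0.429, 0.646 and 0.730. The difference of Cox8b minus Cox4i1 changed with the processing. It was -0.063 without normalization (exact permutation p = 0.532, adjusted 1). Median centring must give the same value, since a shift of a whole array cancels between genes. With the channels of LOAD 2 exchanged it was -0.072 (exact permutation p = 0.460, adjusted 0.460). With the replicate number as a block the difference was again -0.17, which is fixed since each number has 1 LOAD and 1 SHAM array. There the signs of the 5 paired differences were flipped (exact sign-flip p = 0.125, adjusted 0.5), which allows fewer arrangements than the 252 splits. The difference of Cox8b minus Cox4i1 was -0.23 without LOAD 5 (exact permutation p = 0.00794, adjusted 0.0317). Without each of the other 9 rats in turn the exact permutation p lay between 0.0635 and 0.103. That of Cox8b minus Cox6c was -0.23 without LOAD 2, with the same p-values as Cox8b minus Cox4i1 without LOAD 5.

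Across the 10 arrays the ratios of the 4 oxidase genes varied together. Pearson's r over the 10 arrays was 0.88 for Cox8b with Cox4i1, 0.82 for Cox8b with Cox6c, 0.81 for Cox6a2 with Cox8b, 0.80 for Cox6a2 with Cox4i1, 0.77 for Cox4i1 with Cox6c and 0.55 for Cox6a2 with Cox6c. Spearman's rho for these pairs lay between 0.68 and 0.88. After the mean of each dye orientation was removed r lay between 0.66 and 0.86, and without the pair of arrays farthest from the median of the gene named first it lay between 0.50 and 0.80. These values are descriptions over arrays that share normalization and dyes, and 21 pairs of genes were computed. Atp5mc1 ran against Cox6c, with an r of -0.82, but rho was -0.32 and r was 0.37 without LOAD 2 and LOAD 5, so the negative value came from this pair of arrays.

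The muscle forms were also set beside the muscle transcripts Ckm and Myl11, a fast myosin light chain, since muscle transcripts differed widely between tibiae. The log2 ratio of Ckm was -0.05, -0.23, -2.10, -2.56 and -1.96 in LOAD rats and -0.95, 1.57, 0.36, -0.23 and 0.37 in SHAM rats, a wider range than that of any of the 7 genes. LOAD 5, with a ratio of -1.96 for Ckm, had positive ratios for Cox6a2 (0.23) and Cox8b (0.25). Across the 10 arrays Cox6a2 correlated with Ckm at r = 0.53 (permutation p = 0.112, adjusted over all genes 0.997) and rho = 0.42 (permutation p = 0.232, adjusted 1). Cox8b correlated with Ckm at r = 0.43 (permutation p = 0.212, adjusted 0.997) and rho = 0.56 (permutation p = 0.0975, adjusted 1). Leaving out LOAD 3 and 4, whose Ckm ratios lay farthest from the median, r was 0.20 and 0.15. Without LOAD 5 alone r was 0.78 and 0.75. It fell to 0.28 for Cox6a2 without LOAD 4 alone, and to 0.15 for Cox8b without SHAM 2 alone, so that its size depended on the arrays included. Within the 6 arrays with the treated tibia in Cy3 r was 0.67 and 0.87, and the 4 Cy5 arrays are too few for a value.

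**Figure D4:**
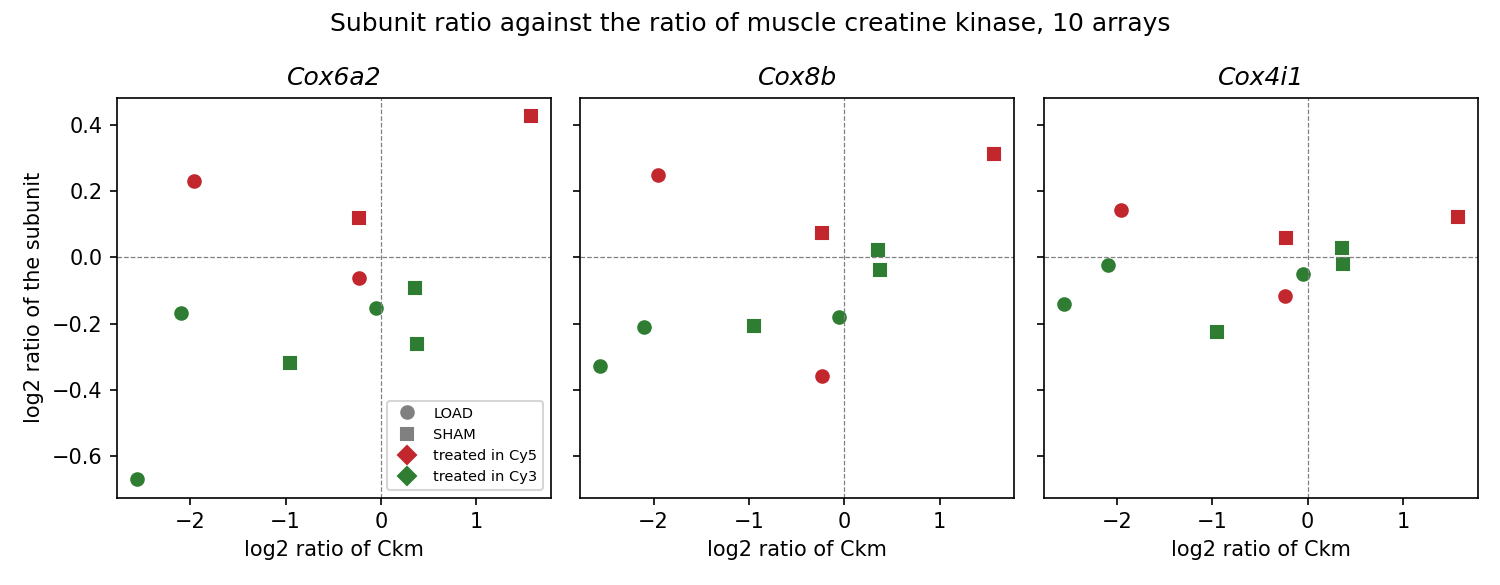
Log2 ratio of Cox6a2, Cox8b and Cox4i1 (vertical) against that of Ckm (horizontal) on the 10 arrays, LOAD as circles and SHAM as squares, coloured by the dye of the treated tibia. LOAD 5 (red circle at -1.96) lies above 0 in all 3 panels, apart from LOAD 3 and LOAD 4 at -2.10 and -2.56.

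With Myl11 in place of Ckm, r was 0.72 for Cox6a2 (permutation p = 0.0202, adjusted over all genes 0.841; rho = 0.59, permutation p = 0.0812, adjusted 0.939) and 0.56 for Cox8b (permutation p = 0.0929, adjusted 0.841; rho = 0.53, permutation p = 0.123, adjusted 0.939). Without LOAD 3 and LOAD 4 these were 0.52 and 0.34, and within the 6 Cy3 arrays 0.75 and 0.84. Myl11 had signal in only 12 of the 20 channels, so some of its ratios include a channel without signal. In the control tibiae alone the level of Cox6a2 correlated with the level of Ckm at r = 0.83 (permutation p = 0.00247, adjusted over all genes 0.614) and rho = 0.68 (permutation p = 0.035, adjusted 1). That of Cox8b did so at r = 0.56 (permutation p = 0.0953, adjusted 1) and rho = 0.54 (permutation p = 0.114, adjusted 1). Without LOAD 3 and LOAD 4 the values of r were 0.80 and 0.56. Of the 4471 genes, 0.224% passed an adjusted p under 0.05 for the ratio of Ckm, 0.268% for Myl11 and 0% for the control level, and 3.65%, 5.41% and 3.76% had an unadjusted p under 0.05. None of the 7 genes passed after adjustment in any of the 3 relations.

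Of 10 skeletal muscle markers chosen for the check, 5 had a spot named by RefSeq and a value on every array (Ckm, Myl11, Tnni2, Eno3 and Car3). Of the 5, 4 had signal in all 20 channels, Myl11 being the exception. The log2 of the summed level of the 5 lay between 11.9 and 12.4 in loaded tibiae and between 11.9 and 13.4 in the controls of LOAD rats, and between 12.2 and 12.9 in sham-loaded tibiae and between 12.2 and 12.5 in the controls of SHAM rats. Of 9 bone markers, 4 had such a spot and value (Spp1, Ibsp, Sparc and Phex) and all 4 had signal in 20 channels. The log2 of their summed level lay between 14.0 and 15.0 in loaded tibiae and between 14.2 and 15.5 in the controls of LOAD rats. It lay between 14.5 and 15.4 in sham-loaded tibiae and between 14.4 and 15.1 in the controls of SHAM rats. Markers spotted under other names, such as Mepe in the study, were not searched for. Alas2 of erythroid cells, Lpl of adipocytes and Acp5 of osteoclasts, the single markers found in this way for these cell types, had LOAD minus SHAM of 0.019, -0.059 and -0.43, none past the test. The part of the muscle transcripts in the ratios of Cox6a2 and Cox8b was not tested beyond the correlations above.

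The ratios of Cox6a2 followed the dye of the treated tibia, a contrast that was added after the values had been seen. With the treated tibia in Cy5 the ratio averaged 0.18 ± 0.21 (SD, n = 4), and with it in Cy3 it averaged -0.28 ± 0.21 (SD, n = 6). All 6 Cy3 arrays were below 0, which 3.31% of all genes showed, and 3 of 4 Cy5 arrays were above 0, with LOAD 2 as the exception. The difference of 0.46 (SE 0.14, 95% interval 0.16 to 0.75) had an unadjusted p of 0.00636 and did not pass at 20% (limma adjusted p = 0.238), while 1.83% of all genes passed and 13.3% had an unadjusted p under 0.05 (5.63% with Cy5 higher, as in Cox6a2 alone of the 7). Cy5 minus Cy3 was 0.23 for Cox8b, 0.12 for Cox4i1, 0.11 for Cox6c, 0.066 for Atp5pd, 0.058 for Atp5mc1 and 0.0046 for Atp5if1. Without LOAD 2 it was 0.52 for Cox6a2 (limma adjusted p = 0.0704), 0.35 for Cox8b (0.0875) and 0.35 for Cox6c (0.103), so that 3 of the 7 genes then passed, but so did 1349 of all genes against 86 with LOAD 2. With a dye term in the fit LOAD minus SHAM stayed at -0.14 for Cox6a2 and -0.20 for Cox8b, since the dyes are balanced between the groups.

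**Figure D5:**
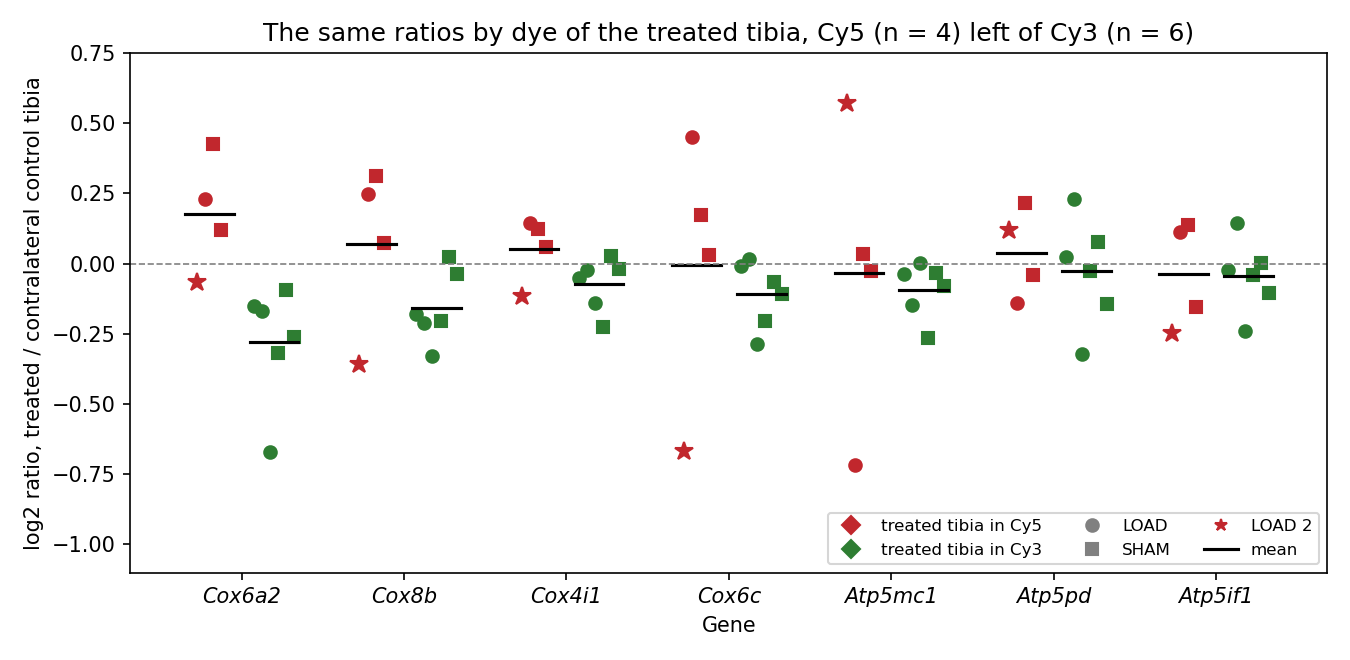
The log2 ratios of the 7 genes by the dye of the treated tibia, Cy5 (n = 4) left of Cy3 (n = 6), with the mean as a bar and LOAD 2 as a star. For Cox6a2 the Cy5 arrays averaged 0.18 and the Cy3 arrays -0.28, and LOAD 2 was the lowest Cy5 array for Cox6a2, Cox8b, Cox4i1, Cox6c and Atp5if1.

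Other genes of energy metabolism on the array did not pass the test in either direction. Complex I was represented by Ndufa5, a subunit, and Ndufaf3, an assembly factor, with LOAD minus SHAM of -0.19 (SE 0.22) and -0.10 (SE 0.10). The electron carrier cytochrome c (Cycs) differed by 0.14 (SE 0.13) and its testis form Cyct by 0.068 (SE 0.16). Fh, fumarase of the citric acid cycle, differed by -0.16 (SE 0.15). Of 7 genes of fatty acid oxidation, 7 had a mean ratio below 0 in LOAD rats, 4 in SHAM rats and 6 in LOAD minus SHAM. Of all genes 53%, 48.8% and 52.2% did. The median of these 7 in LOAD minus SHAM was -0.084, against -0.0067 over all genes. Several of their spots had little signal: Cpt1b had signal in 0, Eci1 in 8, Acadl in 9 and Acadm in 20 of the 20 channels. The lowest p in this list belonged to Acadl, the long-chain acyl-CoA dehydrogenase, at -0.22 (SE 0.14). Cpt1b, the muscle form of the enzyme that admits fatty acids to the mitochondrion, differed by -0.11 (SE 0.10), a value from spots without signal.

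Glycolysis, with 9 genes, had 2 below 0 in LOAD minus SHAM and a median of 0.023, and the lowest p belonged to hexokinase 2 (Hk2) at 0.17 (SE 0.14). Among 4 carriers Slc25a1, the citrate carrier, differed by 0.31 (SE 0.27) and the uncoupling protein Ucp2 by 0.36 (SE 0.51). Of 10 other ATPases 4 were below 0 with a median of 0.0038. The list of 17 muscle genes had 13 below 0 in LOAD rats, 6 in SHAM rats and 14 in LOAD minus SHAM with a median of -0.29, and 0 passed the adjusted threshold, while 8 of the 17 had an unadjusted p under 0.05 in LOAD, against 3.34% of all genes, and 4 of the 17 in LOAD minus SHAM, against 1.49%. This list was chosen with earlier results of these data known, so its counts are a description. In that list LOAD minus SHAM was -1.60 (SE 0.55) for Ckm and -1.86 (SE 0.84) for Myl11. The lists for complexes II and III, complex IV assembly and mitochondrial biogenesis had 0 spots named by RefSeq, and these genes were not analysed here.

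Among the 5 genes whose ratio was most like that of Cox6a2 over the 10 arrays, of 1075 named genes, were Bet1l (r = 0.92), Tnfrsf8 (0.92) and Areg (0.91). Among the 5 most like Cox8b were Cadps (0.89), Grin1 (0.89), Eef1a2 (0.89), the elongation factor form of muscle and neurons, and F2r (0.88). Of 4471 genes, 4.03% had an r above 0.8 with Cox6a2 and 3.42% with Cox8b, so that values of this size were common on these arrays, which share dyes and normalization.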

How the data were processed

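RNA of 20 tibial shafts from 10 rats was hybridized on 10 arrays with a pair of dyes. Scanned images were quantified by the authors in BlueFuse (version 2.0 per the file headers). The deposited files give an intensity per channel and spot, without normalization, and each spot's confidence and signal probability, written as a fraction by the authors' software. The deposited value table holds log2 ratios of treated to control tibia, equal to those of the intensities to within 0.000527, and was not used further. The precision is limited by the number of arrays.

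A confidence under 0.11 made a spot missing. Within each array log2 ratios were normalized by loess (span 0.3, 4 iterations), and a gene could lack a value on at most 1 array. A mean for LOAD, a mean for SHAM and their difference were fitted for 4707 genes in limma 3.58.1 (R 4.3.3), with Benjamini-Hochberg adjustment over all genes and a false discovery rate of 20%. Levels per tibia came from limma's single channel fit after Aquantile normalization of 4472 genes (correlation within spots 0.739). Single differences between groups were tested by exact permutation, or by exact sign flips with the replicate block. Correlations were tested by 100000 permutations adjusted over all 4471 other genes (numpy 2.4.6). Scripts were tested on simulated data.

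Groups and dyes came from the labels. All members were named, with Ckm, Myl11, up to 4 genes per list (lowest p first) and the 5 named genes most correlated with each muscle form, of which some are not reported here. Members and lists were chosen with earlier results of these data known. A comparison with same-subunit partners was planned, and Cox4i1 and Cox6c took their place. Alternatives changed the normalization, filters, offset, dye and batch terms, the pairing and the arrays included. Print-tip effects were not modelled.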

Additional observations from a re-analysis of the deposited data

Results flagged for a closer look

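A sample far from the others of its group was searched for in 42 groups of 5 values (ratio and level per tibia of each gene), where chance alone gives about 1 in 20. It was found in 2, both for the level of Cox6a2. In the loaded tibiae LOAD 5 had a log2 level of 10.12, while the other 4 lay between 9.43 and 9.60. In the control tibiae of SHAM rats SHAM 1 had 9.90, while the other 4 lay between 9.20 and 9.36.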

How the results depend on the processing

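None of the 7 genes passed in LOAD, SHAM, LOAD minus SHAM or either single channel contrast under any alternative run. Without normalization 9 genes passed in LOAD and 2 in LOAD minus SHAM, against 0, and the median of all genes in LOAD moved to -0.227. The signs of the muscle forms changed under some alternatives, and in LOAD minus SHAM so did those of all the rest of the 7. Without normalization Cox8b in SHAM was -0.38 and Cox6a2 in LOAD minus SHAM 0.013. Cox6a2 in SHAM was 0.020 with a dye term and 0.048 with SHAM 1 counted as LOAD. The dye contrast and the alternatives on the arrays numbered 4 and on LOAD 2 were chosen after seeing the data. Without both arrays numbered 4, Cox6a2 in LOAD minus SHAM was 0.023. With these arrays paired by header number, Cox6a2 was 0.049 in LOAD and 0.29 in LOAD minus SHAM, and Cox8b -0.072 in SHAM and 0.011 in LOAD minus SHAM. With the channels of LOAD 2 exchanged and a dye term, Cox6a2 was 0.0056 in LOAD, and Cox8b 0.066 in LOAD and 0.0034 in LOAD minus SHAM. The cause of these changes was not tested beyond the arrays named.

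For the muscle form minus the general form, median centring and no normalization must give the same values. In both Cox6a2 minus Cox4i1 was 0.0035 and Cox6a2 minus Cox6c 0.0050. Cox8b minus Cox4i1 was -0.063 and Cox8b minus Cox6c -0.062 (exact permutation p = 0.532 and 0.754). Without both arrays numbered 4, Cox6a2 minus Cox4i1 was 0.011 and Cox6a2 minus Cox6c 0.024. With the channels of LOAD 2 exchanged, Cox6a2 minus Cox6c was -0.32 and Cox8b minus Cox6c -0.26, both with an exact permutation p adjusted over the pairs of 0.0317, while Cox6a2 minus Cox4i1 was -0.13 and Cox8b minus Cox4i1 -0.072 (exact permutation p = 0.405 and 0.460). Leaving out each array in turn, Cox6a2 minus Cox6c ranged from -0.24 (without LOAD 2) to 0.0041 (without LOAD 4), Cox8b minus Cox4i1 from -0.23 to -0.13, and Cox8b minus Cox6c from -0.23 to -0.094. In the same way, in SHAM, Cox8b ranged from -0.037 (without SHAM 2) to 0.093 (without SHAM 1) and Cox6a2 from -0.14 (without SHAM 2) to 0.048 (without SHAM 1), and between the control tibiae 0 to 8 genes passed.

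The deviations of same-numbered arrays correlated at r between -0.408 and 0.0672, and 0 of 5 LOAD arrays correlated best with its own number. These ratios followed the dye, and the arrays numbered 4 and 5 had opposite dyes in LOAD and SHAM. The values therefore cannot decide whether the numbers pair the rats. With the replicate number as a block LOAD minus SHAM was again -0.14 for Cox6a2 and -0.20 for Cox8b (limma adjusted p = 0.999). These values are fixed, since each number has 1 LOAD and 1 SHAM array. Between the control tibiae 17 genes passed with this block, against 0. Cox8b differed there by 0.52 (SE 0.16, limma adjusted p = 0.348). With the controls of the arrays numbered 4 exchanged, 3 genes passed there and Cox6a2 was -0.20. Cy5 minus Cy3 called 86 genes, against 5 with median centring, 1 without normalization, 6 without both arrays numbered 4 and 577 with the channels of LOAD 2 exchanged, where 1 of the 7 passed, against 0. Leaving out each array in turn it called 7 (without SHAM 4) to 1349 genes (without LOAD 2), and 0 to 3 of the 7.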
